A study of Arabidopsis thaliana with 12 samples.

Results

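The organ boundary genes CUP-SHAPED COTYLEDON1 to 3 (CUC1, CUC2 and CUC3), LATERAL SUPPRESSOR (LAS) and LATERAL ORGAN BOUNDARIES (LOB) of Arabidopsis thaliana were followed through 12 RNA-seq libraries. They were chosen by locus code (AT3G15170, AT5G53950, AT1G76420, AT1G55580 and AT5G63090), and all 5 were found among the 36917 genes of the deposited count table. The libraries belong to a study of FRUITFULL (FUL), which encodes a MADS-domain regulator of fruit valves and inflorescence meristems, and in it mutant and wild type were compared in each of these tissues. There were 4 groups of 3 biological replicates, each replicate pooling about 20 organs of untreated plants grown at 16 h of light.

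Pistils and young siliques at floral stages 12 to 16 came from wild-type plants of ecotype Ler and from ful-1 mutants of the same ecotype. Dissected inflorescence meristems that still carried buds up to stage 3 to 4 came from wild-type Col-0 plants and from ful-7 (SALK_033647), a T-DNA insertion line in Col-0. Tissue and ecotype therefore change together, and so do tissue and mutant allele. The meristem samples include the young buds and the pistil samples include stigma, ovules and early fruit, so each level is an average over many cell types. In such bulk samples, fewer boundary cells and less RNA per boundary cell cannot be told apart.

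Total counts ran from 38340498 to 83606724 in the meristem libraries and from 13191949 to 38215149 in the pistil libraries. The library with the fewest counts, ful-1 pistil library 3, stood apart. Its Spearman correlation over genes was 0.825 and 0.820 with the other ful-1 pistil libraries, while all other pairs within a group reached at least 0.978. Relative to the mean of libraries 1 and 2, its median log2 level was 0.33 for genes with exons under 1 kb and fell by 1.12 for genes of 3 kb and over. Comparisons of the 5 genes in ful-1 pistils are therefore given with and without it. FUL itself had a level, in counts scaled to library size (CPM), of 118 ± 30.5 (SD, n = 3) in Col-0 meristems and 2.48 ± 0.793 in those of ful-7. It was at 102 ± 5.43 CPM in Ler and 7.07 ± 3.92 CPM in ful-1 pistils (9.31 ± 0.631 CPM, n = 2, without library 3), so every mutant library lay below every wild-type library of its tissue. Summed levels of 7 carpel and ovule markers were 25.2 to 49.7 CPM in meristem libraries and 330 to 729 CPM in pistil libraries, but CRC, an early carpel gene among them, averaged 17.9 ± 9.26 CPM (SD, n = 3) in Col-0 meristems and 7.13 ± 3.56 CPM in Ler pistils. Summed levels of 6 meristem and young bud markers were 248 to 311 CPM in meristems and 21.5 to 29.5 CPM in pistils, where WUS and CLV3 had 0 counts in the ful-1 libraries.

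Organ boundaries are narrow bands of small, slowly dividing cells that separate a meristem from the organs it forms, and neighbouring organs from each other. CUC1, CUC2 and CUC3 are NAC-domain transcription factors that act redundantly to hold growth back there and to keep the meristem gene STM active. LAS is a GRAS-domain protein needed to start axillary meristems in the boundary, and LOB is the founding member of the LBD family and limits brassinosteroid accumulation through the inactivating enzyme BAS1. In the gynoecium, CUC1 and CUC2 are known for forming the carpel margin meristems that give rise to septum and ovules, and CUC2 and CUC3 also separate the ovules.

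CUC1 and CUC2 transcripts are cleaved at a site for the microRNA miR164, whereas CUC3 is known as the CUC gene without that control. The sequences are shown because this difference divides the family and because 4 more miR164 target genes are followed below. The miR164a and miR164b-5p sequences are identical, from chr2:19520770-19520790 and chr5:287586-287606, and miR164c-5p at chr5:9852684-9852704, which shares their seed, ends in another base. All 3 lie on the plus strand of RefSeq's TAIR10.1 build, and capitals mark the seed, bases 2 to 8.
miR164a: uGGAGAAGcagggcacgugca
miR164c-5p: uGGAGAAGcagggcacgugcg
In the target sites, capitals mark bases that form Watson-Crick pairs with miR164a, read 5′ to 3′ along the transcript.
CUC1: aGCACGUGuCCUGuUUCUCCA
CUC2: aGCACGUGuCCUGuUUCUCCA
CUC3, closest stretch: caCAuGcuaCuaGaUUCUCCA
NAC1: aGCACGUaCCCUGCUUCUCCA
NAC100: UcuACGUGCCCUGCUUCUCCA
NAC080: UuuACGUGCCCUGCUUCUCCA
ORE1: cuCACGUGaCCUGCUUCUCCg
The CUC1 site lies in the coding part of exon 3 of 3 at chr3:5111137-5111157 on the plus strand, and the CUC2 site in exon 3 of 3 at chr5:21902301-21902321 on the minus strand. Both hold the same 21 bases, with 3 mismatches to miR164a, 2 of which are G:U pairs. The closest stretch of CUC3, at chr1:28672053-28672073 on the minus strand, had 9 mismatches, and LAS and LOB also had 9. A stretch with at most 3 mismatches was found in transcripts of 6 of 27440 genes (0.0219%): CUC1, CUC2, NAC1, NAC100, NAC080 and AT3G12977. ORE1 had 4 mismatches. The miR164 precursor genes were not analysed here.

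All 5 boundary genes were lower in Ler pistils than in Col-0 meristems, by 3.77-fold to 16.7-fold, and all 5 differences passed the test. The genes formed a steep set (CUC1 and LOB), a shallow set (CUC2 and CUC3) and LAS between them. Of the 24009 genes tested, 60.9% passed the same threshold and 29.1% were lower in pistils. The median log2 fold change was -3.02 for the 5 genes and 0.01 over all tested genes, a median that the scaling keeps near 0. A gene passed where edgeR's quasi-likelihood test gave a Benjamini-Hochberg adjusted p under 0.05. The meristem markers above moved with these genes, and their part in the result was not tested.

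CUC1 (chr3:5109782-5111608, plus strand, 3 exons) was at 6.98, 5.87 and 5.66 CPM in Col-0 meristem libraries 1 to 3. In Ler pistils it was at 0.226, 0.266 and 0.592 CPM, from 7, 9 and 21 counts. No pistil library approached a meristem library, and the edgeR log2 fold change was -4.05 ± 0.36 (SE; adjusted p = 8.3e-05), or 16.6-fold lower. CUC2 (chr5:21901704-21903854, minus strand, 3 exons) was at 11.4, 9.13 and 8.87 CPM in Col-0 meristems and at 2.00, 2.24 and 2.45 CPM in Ler pistils. Its fall of 4.33-fold (log2 fold change -2.11 ± 0.17 SE, edgeR adjusted p = 6.3e-05) was shallower than that of CUC1. CUC3 (chr1:28671806-28674045, minus strand, 3 exons) was at 6.20, 6.08 and 5.93 CPM in Col-0 meristems and at 1.19, 1.62 and 1.95 CPM in Ler pistils. It was 3.77-fold lower in pistils (log2 fold change -1.91 ± 0.22 SE, edgeR adjusted p = 0.00025), and the groups did not overlap.

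LAS (chr1:20763844-20765823, plus strand, 1 exon) was at 2.87, 3.55 and 2.71 CPM in Col-0 meristems and at 0.354, 0.266 and 0.479 CPM in Ler pistils, where it rested on 9 to 17 counts a library. Its level was 8.11-fold lower in pistils (log2 fold change -3.02 ± 0.30 SE, edgeR adjusted p = 0.00013). LOB (chr5:25308516-25311019, minus strand, 3 exons) was at 4.56, 6.91 and 6.03 CPM in Col-0 meristems and at 0.580, 0.148 and 0.310 CPM in Ler pistils. With 5 to 18 counts a pistil library, LOB was 16.7-fold lower (log2 fold change -4.06 ± 0.42 SE, edgeR adjusted p = 0.00018). For all 5 genes every meristem library stood above every pistil library, as in 33.7% of the genes tested.

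**Figure D1:**
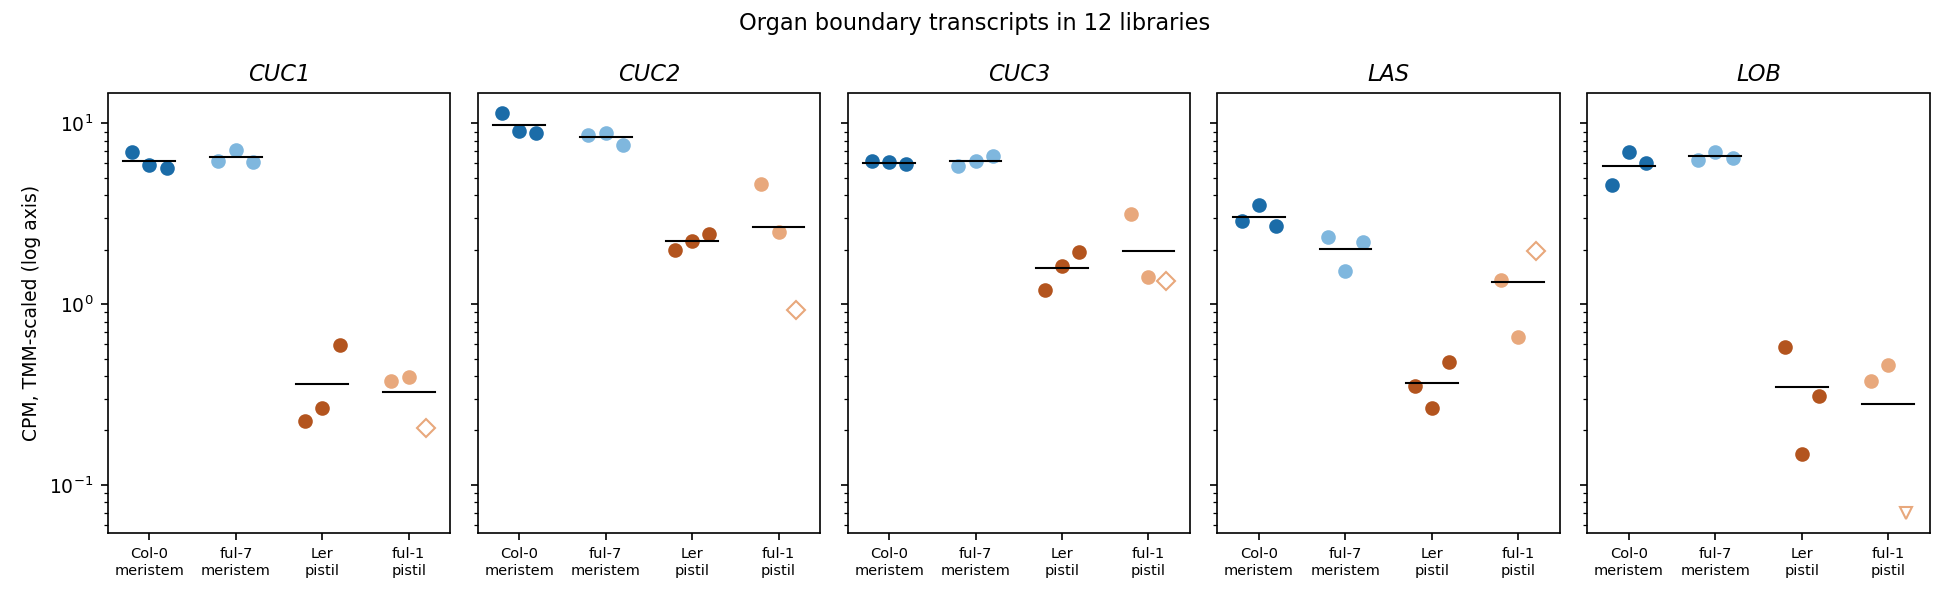
Level of each boundary gene in each library, in CPM scaled by the trimmed mean of M-values (TMM), on a log axis shared by all panels. Points are libraries (n = 3 per group), lines are group means, open diamonds are ful-1 pistil library 3, and the open triangle marks 0 counts of LOB in that library. In CUC1, CUC2, CUC3 and LOB all meristem libraries lie above all pistil libraries, while the LAS points of ful-7 meristems and ful-1 pistils overlap.

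The mutant libraries gave the same tissue comparison from samples that the wild-type comparison does not use. CUC1 was at 6.20, 7.16 and 6.09 CPM in ful-7 meristems and at 0.375, 0.394 and 0.206 CPM in ful-1 pistils, from 16, 12 and 2 counts. The log2 fold change of CUC1 was -4.18 ± 0.34 (SE; edgeR adjusted p = 0.00043). LOB was at 6.26, 6.97 and 6.46 CPM in ful-7 meristems. In ful-1 pistils LOB was at 0.375 and 0.460 CPM in libraries 1 and 2 and had 0 counts in library 3, where the limit that a count of 0 allows (3 counts) is 0.309 CPM. Its log2 fold change was -4.29 ± 0.66 (SE; edgeR adjusted p = 0.0038). CUC1 and LOB thus stood again as the steep genes.

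CUC3 was at 5.79, 6.18 and 6.63 CPM in ful-7 meristems and at 3.14, 1.41 and 1.34 CPM in ful-1 pistils, a log2 fold change of -1.59 ± 0.39 (SE; edgeR adjusted p = 0.025). CUC2 was at 8.66, 8.85 and 7.61 CPM in ful-7 meristems and at 4.60, 2.50 and 0.927 CPM in ful-1 pistils. These CUC2 groups did not overlap either, like those of CUC1, CUC3 and LOB and the 28.2% of tested genes that were lower without overlap, but the 3 pistil libraries spread widely and the log2 fold change of -1.57 ± 0.52 (SE) missed the threshold (edgeR adjusted p = 0.065). LAS was at 2.35, 1.53 and 2.21 CPM in ful-7 meristems and at 1.36, 0.657 and 1.96 CPM in ful-1 pistils. The LAS groups overlapped, with a log2 fold change of -0.61 ± 0.47 (SE; edgeR adjusted p = 0.39).

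Thus 3 of the 5 genes passed in the mutants, beside 30.1% of the 23914 genes tested, 11.9% being lower in pistils. Without ful-1 pistil library 3, all 5 were lower in pistils, beside 69.8% of 25239 genes, 33.4% being lower. The log2 fold changes were then -4.07 ± 0.22 (SE) for CUC1, -3.98 ± 0.21 for LOB, -1.41 ± 0.31 for CUC3 and -1.22 ± 0.25 for CUC2. That of LAS was -0.98 ± 0.37 (SE; edgeR adjusted p = 0.046). Over all 6 libraries CUC3 lost its call when any ful-7 library or ful-1 library 2 was left out (edgeR adjusted p = 0.075 to 0.082).

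**Figure D2:**
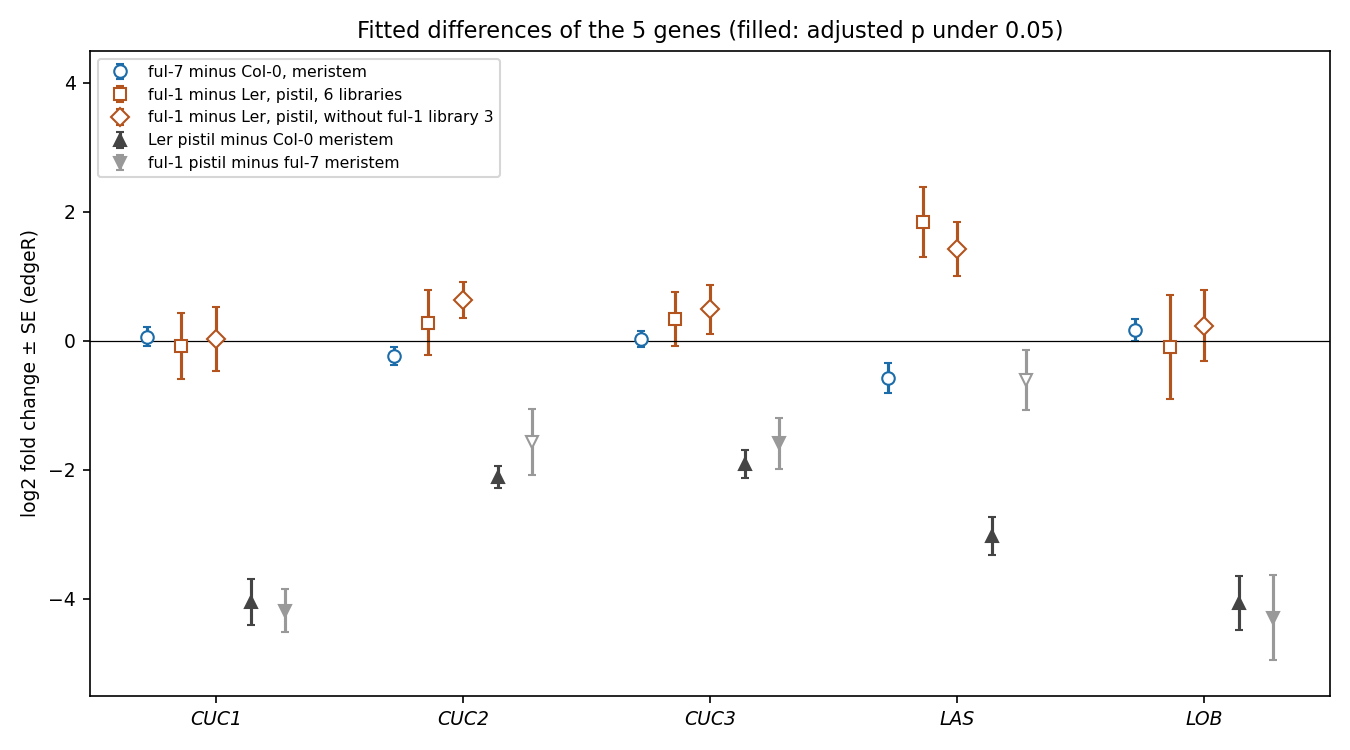
Fitted log2 fold change of each boundary gene in the 4 pairwise comparisons, and in pistils without ful-1 library 3, with bars of 1 SE from edgeR. Filled symbols have an adjusted p under 0.05. The tissue differences lie below 0 for all 5 genes, and LAS is the gene whose mutant differences lie farthest from 0, at 1.85 in pistils and -0.58 in meristems.

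Levels per kilobase of exon (RPKM, from the TMM-scaled CPM) allow the genes to be ordered within a tissue. In Col-0 meristems the order was CUC2 at 6.75 RPKM, CUC1 at 4.99, LOB at 4.62, CUC3 at 4.22 and LAS at 1.54. CUC1, LOB and CUC3 overlapped as neighbours in that order, while CUC2 above and LAS below did not. In ful-7 meristems the order was the same, with CUC2 at 5.78 RPKM, CUC1 at 5.24, LOB at 5.20, CUC3 at 4.31 and LAS at 1.03. There CUC2, CUC1 and LOB overlapped with their neighbours, while CUC3 and LAS were set off below them. In Ler pistils CUC2 led at 1.54 RPKM and CUC3 followed at 1.10, and both stood clear of CUC1 at 0.292, LOB at 0.274 and LAS at 0.185, which overlapped. In ful-1 pistils CUC2 was at 1.85 RPKM, CUC3 at 1.37, LAS at 0.669, CUC1 at 0.263 and LOB at 0.221. LAS ranked below CUC3 there, with its range overlapping that of CUC3 but not that of CUC1. Without library 3 the ful-1 means were 2.45 RPKM for CUC2, 1.58 for CUC3, 0.5095 for LAS, 0.331 for LOB and 0.311 for CUC1, so LOB and CUC1 changed places.

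The make-up of the CUC transcript pool therefore differed between the tissues. CUC1 made up 31.2 ± 0.444% (SD, n = 3) of the summed CUC RPKM in Col-0 meristems and 34.2 ± 1.40% in ful-7 meristems. It made up 9.55 ± 3.50% in Ler pistils and 8.50 ± 2.76% in ful-1 pistils, and every pistil library lay below every meristem library. CUC2 made up 42.2 ± 1.59% in Col-0 and 37.7 ± 2.13% in ful-7 meristems, against 53.1 ± 4.84% in Ler and 49.9 ± 11.4% in ful-1 pistils. CUC3 made up 26.6 ± 2.02% and 28.2 ± 2.61% in those meristems and 37.4 ± 2.35% and 41.6 ± 10.9% in those pistils. Library 3 had the lowest ful-1 share of CUC2 (36.8%) and the highest of CUC3 (53.6%). Its shares and ratios rest on 2 counts of CUC1, 9 of CUC2 and 13 of CUC3. In ful-1 libraries 1 and 2 the shares were 5.36 and 10.55% for CUC1, 56.0 and 57.0% for CUC2, and 38.6 and 32.5% for CUC3.

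Ratios between the CUC genes were compared over the 6 pistil and 6 meristem libraries with a two-sided exact permutation test adjusted over 3 ratios. The test was added after the data were seen, so its p-values describe a pattern already seen. It shuffled libraries freely, although they form 4 groups and tissue changes with ecotype. In meristems the log2 ratio of CUC1 over CUC2 was -0.47 to -0.41 in Col-0 and -0.25 to -0.08 in ful-7. Genotypes were not compared by a test on this ratio, where 3 libraries against 3 allow no exact p under 0.1. The log2 ratio of CUC1 over CUC2 was lower in pistils by a difference of -2.27 (exact p = 0.0022, the smallest this design allows; adjusted p = 0.0033). That of CUC1 over CUC3 was lower by -2.43 (exact p = 0.0022; adjusted p = 0.0033). That of CUC2 over CUC3 differed by -0.16 (exact p = 0.57), and by 0.03 (exact p = 0.85) without ful-1 library 3. Within the wild types the differences for CUC1 over CUC2 and CUC1 over CUC3 were -2.10 and -2.26, and within the mutants -2.45 and -2.60; with 3 libraries against 3, the smallest possible exact p is 0.1. CUC1 thus parted from CUC2, with which it shares the miR164 site, while CUC2 and CUC3 were not seen to part. CUC1 and CUC2 are also the closest relatives in sequence, sharing a stretch of 267 bases at 83.9% identity, and the handling of reads that fit several places is not given in the sources used here.

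**Figure D3:**
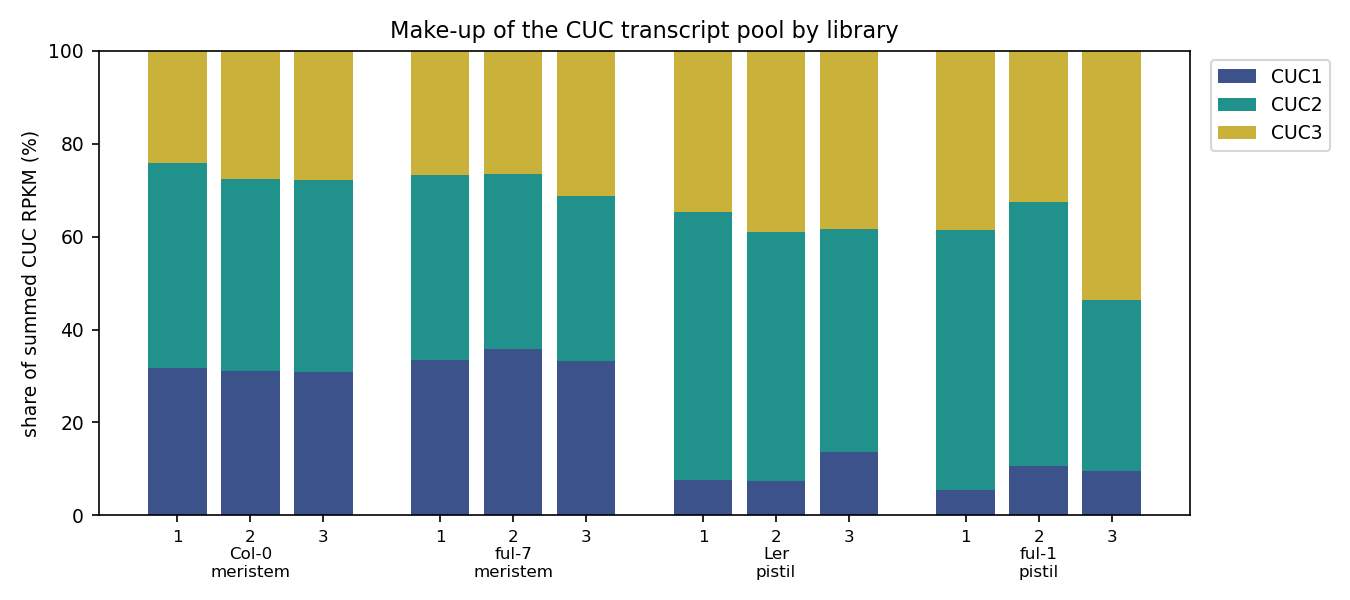
Share of CUC1, CUC2 and CUC3 in the summed RPKM of the CUC genes in each of the 12 libraries, in percent, with 1 stacked bar per library. CUC1 takes 30.9 to 35.8% in the meristem libraries and 5.36 to 13.6% in the pistil libraries.

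In pistils, loss of FUL was not accompanied by a called change of any boundary gene. The count called was 0 of 5 with edgeR and 0 of 5 with DESeq2. FUL itself missed the threshold in the same edgeR fit, with a log2 fold change of -3.84 ± 0.47 (SE) and adjusted p = 0.063. Without ful-1 library 3 it passed, at -3.50 ± 0.11 (SE, edgeR adjusted p = 0.00015). A missed call in the fit with library 3 therefore does not show that a gene was unchanged. Of 23674 genes tested, edgeR called 44 (0.186%) and DESeq2 927, and 2429 had an unadjusted edgeR p under 0.05, among them LAS. LAS was at 0.354, 0.266 and 0.479 CPM in Ler and at 1.36, 0.657 and 1.96 CPM in ful-1 pistils, from 58, 20 and 19 counts. Each ful-1 library lay above each Ler library, as in 13.3% of the genes tested. The log2 fold change of LAS was 1.85 ± 0.54 (SE; edgeR unadjusted p = 0.013, adjusted p = 0.34), or 3.59-fold. Its adjusted p was 0.053 with DESeq2 and 0.053 to 0.88 over the alternatives.

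Library 3 held the highest ful-1 value of LAS, 0.70 above the mean of libraries 1 and 2 on the log2 scale. The median on that scale was -0.03 for genes with exons of 1 to 2 kb and -0.62 for 2 to 3 kb. LAS has 1980 bases, near the border of these classes. Without library 3, the log2 fold change of LAS was 1.43 ± 0.42 (SE, edgeR adjusted p = 0.078), beside 13.4% of 24068 genes called, 5.12% as higher. Carpel and ovule markers summed to 330 to 367 CPM in Ler and 479 to 729 CPM in ful-1, and their part in the LAS values was not tested.

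The CUC genes and LOB did not separate the pistil genotypes. CUC2 was at 2.00 to 2.45 CPM in Ler and 0.927 to 4.60 CPM in ful-1, with a log2 fold change of 0.29 ± 0.50 (SE; edgeR adjusted p = 0.81), and 0.63 ± 0.28 (adjusted p = 0.19) without library 3. CUC3 was at 1.19 to 1.95 CPM in Ler and 1.34 to 3.14 CPM in ful-1, with log2 fold changes of 0.34 ± 0.42 (SE; edgeR adjusted p = 0.74) and 0.49 ± 0.38 (adjusted p = 0.43). For both genes ful-1 library 1 lay above all Ler libraries. Library 2 also did so for CUC2, at 2.497 CPM, but not for CUC3, and library 3 did so for neither gene. Without ful-1 library 1 the differences were -0.30 for CUC2 and -0.14 for CUC3. CUC1 differed by -0.08 ± 0.51 (SE; edgeR adjusted p = 0.96) and LOB by -0.09 ± 0.80 (adjusted p = 0.96), on at most 21 counts a library. Without library 3 the differences were 0.03 ± 0.49 (SE; edgeR adjusted p = 0.97) for CUC1 and 0.24 ± 0.55 (adjusted p = 0.80) for LOB. Errors of this size do not show that the genotypes were alike.

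In meristems the boundary genes were better covered, with 70 to 711 counts a library, and 0 of 5 were called in ful-7 by edgeR or DESeq2. Of 22605 genes tested, edgeR called 66 (0.292%) and DESeq2 812, and 3406 had an unadjusted edgeR p under 0.05, again with LAS as the only member. LAS was at 2.87, 3.55 and 2.71 CPM in Col-0 and at 2.35, 1.53 and 2.21 CPM in ful-7. Here all ful-7 values lay below all Col-0 values, as in 10.7% of the genes tested. The log2 fold change was -0.58 ± 0.23 (SE; edgeR unadjusted p = 0.038, adjusted p = 0.31), or 1.49-fold lower, and the adjusted p was 0.23 to 1 over the alternatives.

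CUC2 also did not overlap, at 8.87 to 11.4 CPM in Col-0 and 7.61 to 8.85 CPM in ful-7, but its log2 fold change of -0.23 ± 0.14 (SE) was small (edgeR adjusted p = 0.46). CUC1 differed by 0.07 ± 0.14 (SE; edgeR adjusted p = 0.85) and CUC3 by 0.03 ± 0.13 (adjusted p = 0.94). LOB differed by 0.17 ± 0.18 (SE; edgeR adjusted p = 0.66), and its ful-7 libraries at 6.26 to 6.97 CPM lay inside or just above the Col-0 range of 4.56 to 6.91 CPM. The summed petal and stamen markers AP3 and PI were at 49.4 to 105.5 CPM in Col-0 and 102.5 to 119.3 CPM in ful-7, and their part in these values was not tested.

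The difference of the mutant effect between tissues was tested for all genes in a fit of the 12 libraries. LAS, higher in every ful-1 pistil library and lower in every ful-7 meristem library than in wild type, had a difference of 2.37 ± 0.56 (SE) on the log2 scale (edgeR unadjusted p = 0.0014, adjusted p = 0.094). It missed the threshold that 189 of 25154 genes (0.751%) passed, and the count of members called was 0. DESeq2 called it (2.39, adjusted p = 0.0024), and edgeR did so without ful-1 pistil library 2 (2.71, adjusted p = 0.047) and without library 3 (1.99 ± 0.47 SE, adjusted p = 0.024, beside 10.2% of 25577 genes called). Over the alternatives its adjusted p was 0.0024 to 0.26. The differences were 0.55 ± 0.55 (SE) for CUC2, 0.32 ± 0.45 for CUC3, -0.13 ± 0.49 for CUC1 and -0.21 ± 0.75 for LOB, with edgeR adjusted p of 0.72 to 0.97. Allele and ecotype also differ between the tissues, and their part cannot be told apart from that of the tissue.

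Genes that work with the boundary genes were taken from 5 lists, of which 43 genes were tested between the wild-type tissues. Of these, 18 were higher in Ler pistils, 16 were lower and 9 were not called, beside 31.8% of all genes higher and 29.1% lower. The median log2 fold change of the 43 was 0.17. Pooled over the 5 lists, wild-type tissue differences thus went both ways, while the 5 members all went down. Single lists also kept to 1 direction: of the downstream genes 4 of 5 were lower and 0 higher. Of the other miR164 target NAC genes, 4 of 4 were higher.

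The other miR164 target NAC genes went opposite to CUC1 and CUC2, with 4 of 4 higher in Ler pistils. ORE1, a regulator of leaf senescence, was at 0.0841, 0.104 and 0.587 CPM in Col-0 meristems and at 28.3, 22.9 and 28.2 CPM in Ler pistils (log2 fold change 6.58 ± 0.55 SE, edgeR adjusted p = 6.7e-05). NAC080 was at 0.0504, 0 and 0.228 CPM in Col-0 meristems and at 13.5, 16.6 and 15.0 CPM in Ler pistils (7.15 ± 0.56 SE, adjusted p = 5.3e-05). NAC100 rose by 1.39 ± 0.24 (SE; edgeR adjusted p = 0.0017) and NAC1, known from auxin signalling in lateral roots, by 1.35 ± 0.14 (adjusted p = 2e-04). NAC1 shares 31.0% of its exonic length with AT1G08087, whose reads may not be separable. All 4 were also higher in ful-1 pistils than in ful-7 meristems, by log2 fold changes of 1.65 to 7.91 (edgeR adjusted p = 0.00053 to 0.031), and by 1.44 to 8.215 without ful-1 library 3. Over all genes, edgeR called 4357 of 23914 as higher in that comparison, and 9197 of 25239 without library 3.

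Of the genes that act downstream of CUC1, CUC2 or LOB, 4 of 5 were lower in Ler pistils, with a median log2 fold change of -2.62. KNAT6, a KNOX homeobox gene of the boundary, was at 72.7, 72.6 and 50.01 CPM in Col-0 meristems and at 2.16, 1.59 and 1.24 CPM in Ler pistils (-5.28 ± 0.24 SE, edgeR adjusted p = 6.8e-06). LSH3 and LSH4, ALOG-domain genes that CUC1 activates, had log2 fold changes of -5.35 ± 0.25 (SE; edgeR adjusted p = 7.3e-06) and -2.62 ± 0.30 (adjusted p = 0.00026). STM, the meristem KNOX gene, was lower by a log2 fold change of -2.30 ± 0.18 (SE; edgeR adjusted p = 4.8e-05). BAS1, the brassinosteroid-inactivating enzyme under LOB, was the member not called, at -0.36 ± 0.23 (SE; edgeR adjusted p = 0.21), while LOB itself was 16.7-fold lower. STM is also among the meristem markers. In the mutants the same 4 genes were lower in ful-1 pistils, by log2 fold changes of -2.17 to -5.46 (edgeR adjusted p = 0.00016 to 0.0018), and of -2.26 to -5.46 without ful-1 library 3. Of all genes tested, 11.9% were called lower in that comparison, and 33.4% without library 3.

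Of the upstream regulators 16 were tested, and 8 were higher and 6 lower in Ler pistils. IND, a bHLH factor of the valve margin, had 1 count in all Col-0 meristem libraries together and 563 in the Ler pistils, a ratio of 911.9 per total count (exact 95% interval 163 to 36080, counting error only). TCP3, a class II TCP factor that restrains CUC expression through miR164, was higher in pistils by 2.97 ± 0.18 (SE; edgeR adjusted p = 1.7e-05), but 82.6% of its exonic length overlaps AT1G53233. HAN, a boundary GATA factor, had a log2 fold change of -1.86 ± 0.16 (SE; edgeR adjusted p = 8.1e-05) and AS1, a leaf MYB factor, of -1.39 ± 0.12 (adjusted p = 8.6e-05). AS1 shares 17.2% of its exonic length with AT2G37620. BOP1 and BOP2, BTB-ankyrin cofactors at the organ base, were the upstream genes with the lowest p on the lower side in the mutants, with log2 fold changes of -4.40 ± 0.48 and -3.36 ± 0.28 (SE; edgeR adjusted p = 0.0011 and 0.00048). Without ful-1 library 3 these were -4.60 ± 0.46 and -3.24 ± 0.16 (SE). BOP1 had 3, 1 and 1 counts in the ful-1 pistil libraries, so the size of its difference is uncertain. BOP2 overlaps AT2G41375 over 18.2% of its exonic length.

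Of 12 other boundary and axillary meristem genes, 3 were higher and 4 lower in Ler pistils, shares near those over all genes given above. LOF1, a MYB factor of the boundary, was at 27.3, 24.5 and 26.8 CPM in Col-0 meristems and at 1.06, 1.30 and 1.015 CPM in Ler pistils (-4.52 ± 0.14 SE, edgeR adjusted p = 1.6e-06). AT5G01305 also fell steeply, by 5.54 ± 0.64 (SE) on the log2 scale (edgeR adjusted p = 0.00029). It had 5, 2 and 0 counts in the Ler pistil libraries, so the size of its fall is uncertain. SUP, which bounds stamens from carpels, was higher by 2.96 ± 0.23 (SE; edgeR adjusted p = 4.9e-05) and BRC2, a TCP factor of axillary buds, by 2.73 ± 0.29 (adjusted p = 0.00019).

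Among 6 class I LBD relatives of LOB, 3 were higher and 2 lower in Ler pistils. LBD36 was at 0.134, 0.0259 and 0.196 CPM in Col-0 meristems and at 6.67, 4.16 and 6.004 CPM in Ler pistils (5.44 ± 0.48 SE, edgeR adjusted p = 8.3e-05), opposite to LOB. LBD10, known from pollen development, had a log2 fold change of 4.27 ± 0.85 (SE; edgeR adjusted p = 0.0036) and AS2, a leaf polarity gene, of 1.504 ± 0.28 (adjusted p = 0.0027). LBD3 moved with LOB, at -2.71 ± 0.46 (SE; edgeR adjusted p = 0.0017). The 4 tapetum and pollen markers summed to 8.77 to 30.1 CPM in meristems and 452 to 1303 CPM in pistils. The pollen genes VGD1 (8.91 ± 5.84 and 551 ± 285 CPM, SD, n = 3, in Col-0 meristems and Ler pistils) and AT5G45880 (2.83 ± 1.53 and 305 ± 142 CPM) carried this sum. The tapetum genes went the other way, AMS from 4.87 ± 0.516 to 0.128 ± 0.0277 CPM and AT5G07230 from 3.44 ± 3.29 to 0.159 ± 0.0109 CPM. The part of these markers in the LBD10 difference was not tested.

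**Figure D4:**
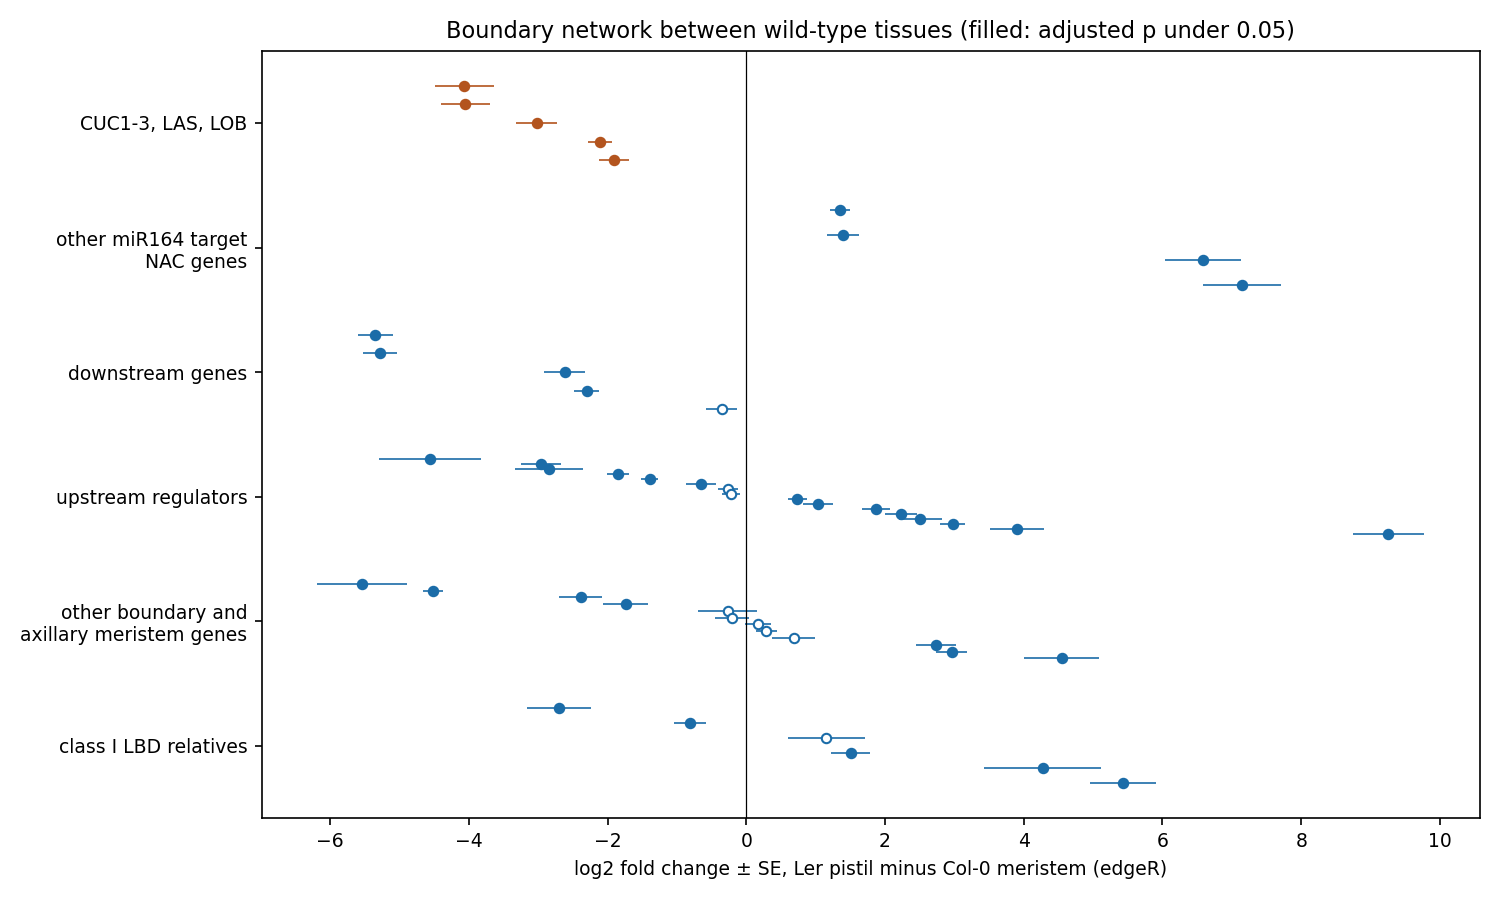
Log2 fold change of Ler pistils against Col-0 meristems for the 5 boundary genes (orange) and for the tested genes of the 5 lists (blue), 1 point per gene with a bar of 1 SE from edgeR, sorted within each list. Filled points have an adjusted p under 0.05. The 5 boundary genes lie between -4.06 and -1.91, the 4 other miR164 target NAC genes lie above 0, and the upstream, other boundary and LBD lists hold called genes on both sides.

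In ful-1 pistils 1 of 38 list genes tested was called, beside 0.186% of all genes tested. It was IND, which rose from 5.60 ± 0.477 CPM (SD, n = 3) in Ler to 63.2 ± 9.07 CPM in ful-1 (log2 fold change 3.53 ± 0.23 SE, edgeR adjusted p = 0.010). RAX2, a MYB factor of axillary meristems, was at 2.03 to 2.36 CPM in Ler and 4.501 to 5.67 CPM in ful-1 (1.19 ± 0.27 SE, adjusted p = 0.25). NAC1, KNAT6 and AS2, the lowest p of their lists, gave 0.54, 0.78 and 0.51 as edgeR adjusted p-values. Without ful-1 library 3, 5 of 38 were higher and 3 lower, beside 1233 higher (5.12%) and 1988 lower of 24068 genes tested. RAX2 was among the higher (1.002 ± 0.16 SE, edgeR adjusted p = 0.013).

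In ful-7 meristems 0 of 38 list genes were called, beside 0.292% of all genes tested. RAX2 had the lowest p of the 5 lists here, at 1.92 to 3.18 CPM in Col-0 and 4.85 to 5.88 CPM in ful-7 (log2 fold change 1.003 ± 0.22 SE, edgeR adjusted p = 0.16). LSH3 differed by -0.68 ± 0.17 (SE; edgeR adjusted p = 0.19), TCP4 by 0.79 ± 0.22 (adjusted p = 0.22), AS2 by 0.85 ± 0.28 (adjusted p = 0.27) and NAC100 by 0.16 ± 0.30 (adjusted p = 0.82). In the difference between tissues 0 of 43 were called, beside 0.751% of all genes tested, and LOF1 had the lowest p (1.78 ± 0.48 SE, edgeR adjusted p = 0.15).

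The profiles of the 5 genes over the 12 libraries were compared as log2(CPM + 0.5) centred on each gene's mean, with the root mean square difference as the measure of distance, over the 21215 genes that averaged 1 CPM or more. Among the members CUC2 and CUC3 were closest, at 0.287, followed by CUC1 and LOB at 0.312, and LAS and LOB were farthest apart at 1.12. The genes nearest to CUC1 were AT4G01920 (0.171), AT4G31685 (0.181) and AT2G11035 (0.206). Nearest to CUC2 were NIC2 (0.204), a nicotinamidase gene, AT1G22330 (0.204) and AT2G12461 (0.215). Nearest to CUC3 were AGP16 (0.192), an arabinogalactan peptide gene, HAN (0.196) and AT1G05363 (0.204). Nearest to LAS were GRF8 (0.215), a growth-regulating factor, AT5G10965 (0.218) and NRPE3B (0.225), an RNA polymerase subunit gene. Nearest to LOB were AT1G52770 (0.191), AT1G54930 (0.220) and AT4G03490 (0.253). These names depend on the pseudocount: with 1 in place of 0.5, 0 of the 3 genes nearest to LAS were the same, and NIC2 was no longer among those of CUC2.

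The level of GRF8, nearest to LAS with the pseudocount of 0.5, was 26.3 ± 0.651 CPM (SD, n = 3) in Col-0 meristems, 21.9 ± 0.520 CPM in those of ful-7, and 6.70 ± 1.43 CPM in Ler and 14.1 ± 6.66 CPM in ful-1 pistils. These distances describe 12 libraries of 4 groups that share their tissue contrast.

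FUL belongs to the MADS-domain family, which binds DNA motifs named CArG boxes. A CArG box was sought on both strands from 1000 bases before to 50 bases after each gene start in TAIR10.1. It was found in 2118 of 27443 promoters (7.72%) and in 0 of the 5 boundary genes, which says only that the letters searched are not in these windows.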

How the data were processed

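Per the labels' protocols, mRNA-enriched RNA from a CTAB and LiCl extraction went into stranded TruSeq libraries, read from both ends (150 bases each) on a NovaSeq. The submitters' processing notes name STAR 2.7.0b, featureCounts 1.6.0 and the TAIR10 genome. The deposited table holds whole-number counts per gene, summing to 13191949 to 83606724 per library. The strand setting of the counting step is not given in the sources used here; no member overlaps exons of another gene. The columns name a group but no replicate, so libraries are numbered by their order in the table. Symbols, exons and sequences came from RefSeq's TAIR10.1 annotation, which matched 36632 of 36917 identifiers.

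Counts were tested in R 4.3.3 with edgeR 4.0.16 (filterByExpr, TMM, quasi-likelihood F test, robust estimation off, Benjamini-Hochberg over all genes tested, threshold 0.05). All 5 members passed the filter in every comparison. SE was taken as the log2 fold change over the root of the F statistic. Printed CPM use the TMM factors of all 12 libraries, and RPKM divides them by exonic length. P-values measure the spread between these pooled samples only. DESeq2 1.42.0, its size factors, other filters, a fit of all libraries and omission of each library were alternatives. Sequence stretches were compared with blastn 2.17.0, and figures drawn with matplotlib 3.10.9 in Python 3.11.15. The code was tested on simulated data with a smaller spread than the fits that hold ful-1 library 3, and no low-count gene was changed there. That check does not cover these settings. The members and lists were chosen with earlier results of these data known. Named list genes are up to 4 called per list and comparison by lowest p, or the lowest p where none was called. Of the lists, 2 entries whose locus code carries another symbol were dropped.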

Additional observations from a re-analysis of the deposited data

How the results depend on the processing

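No paired analysis was possible because the columns carry no replicate numbers. All 5 members stayed lower in Ler pistils than in Col-0 meristems under all 11 alternatives run, and none was called in either comparison of mutant and wild type (with the filter of 1 CPM in 3 libraries, 2 of 5 could be tested in pistils). In pistils the number of genes called moved from 44 to 927 with DESeq2, 647 in a fit of all 12 libraries and 0 to 3221 when a library was left out, the 3221 coming without ful-1 library 3. In meristems it moved from 66 to 812 with DESeq2, 153 with no filter, 26 in a fit of all 12 libraries and 10 to 93 when a library was left out. Between the mutant tissues it moved from 7191 to 11131 in a fit of all 12 libraries and 4866 to 17625 when a library was left out, with 2 to 5 members called against 3; CUC2 was called with DESeq2 (adjusted p = 0.0085) and in the fit of all 12 libraries (adjusted p = 0.0069). In the difference between tissues it moved from 189 to 1236 with DESeq2, with 1 member (LAS) called, and to 57 to 2599 when a library was left out, with 0 to 1 member called. Some uncalled differences changed sign when a library was left out, though those of LAS in pistils, meristems and the difference, and those of CUC2 and LOB in meristems, did not. In pistils CUC1 ran from -0.35 to 0.47, CUC2 from -0.30 to 0.63, CUC3 from -0.14 to 0.55 and LOB from -0.48 to 0.43, and in meristems CUC1 ran from -0.01 to 0.17 and CUC3 from -0.03 to 0.07. In the difference CUC1 ran from -0.38 to 0.42, CUC2 from -0.07 to 0.86, CUC3 from -0.23 to 0.53 and LOB from -0.58 to 0.35. The pistil minus meristem difference in the log2 ratio of CUC2 over CUC3 moved from -0.16 to 0.03 without ful-1 library 3. The cause was not tested. Other scalings moved the median of all genes by less than 0.1 on the log2 scale and turned no member. Of the 3 nearest genes of CUC1, CUC2, CUC3, LAS and LOB, 0, 1, 2, 3 and 1 were the same with a minimum mean of 5 CPM, and 2, 1, 2, 0 and 2 with a pseudocount of 1. The pistil values of CUC1, LAS and LOB rest on 0 to 58 counts a library, so their relative counting error is larger than in meristems.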
